A study of Mus musculus with 18 samples.

Results

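The genes described here encode the nuclear part of the mitochondrial respiratory complexes II to V: subunits and assembly factors of succinate dehydrogenase (complex II), the cytochrome bc1 complex (complex III), cytochrome c, some of the subunits of cytochrome c oxidase (complex IV) and the ATP synthase (complex V). They were chosen by gene symbol, as Sdha to Sdhd, Cyc1, Cycs and every symbol that begins with Sdhaf, Uqcr, Uqcc, Cox5, Cox6b, Cox6c, Cox7b, Cox7c or Atp5, leaving out 2 symbols marked as pseudogenes. This gave 46 of the 54347 genes in the table, with 8 of complex II, 12 of complex III, 1 for cytochrome c, 8 of complex IV and 17 of complex V, of which 7 were assembly factors. After the filter on low counts 18728 genes were tested, including 45 of the 46. The exception was Cox7b2, a testis form of a complex IV subunit.

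Polyadenylated RNA was sequenced from interscapular brown (iBAT), inguinal white (iWAT) and epididymal white adipose tissue (eWAT) of 6 chow-fed mice, 12 weeks old and on the C57BL/6N background. Of these, 3 were wild type (wt) and 3 were litter mates labelled ko, in which CRISPR/Cas9 had removed a stretch with exon 1 of the long noncoding RNA gene Gm15551, and the ko line had been backcrossed to wild type animals. Every mouse gave a library of each tissue, so that the 18 libraries formed 6 groups of 3. The libraries are of whole tissue, in which fewer cells of a type and less RNA per cell cannot be told apart.

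Complexes III and IV pass electrons from ubiquinol to oxygen and pump protons, complex II feeds electrons from succinate into the ubiquinone pool without pumping, and complex V lets protons flow back to make ATP. Most subunits are encoded in the nucleus, but cytochrome b, the core of cytochrome c oxidase and a pair of ATP synthase subunits are encoded in the mitochondrial genome. In thermogenic fat cells the uncoupling protein Ucp1 lets protons return to the matrix without ATP being made, so that respiration ends as warmth. Brown adipose tissue of rodents is known for a low content of ATP synthase relative to its respiratory chain.

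Total counts per library were between 14997901 and 34389586, of which the members took 2.71% to 2.93% in iBAT. They took 0.724% to 1.19% of the counts in iWAT, and 0.620% to 0.931% in eWAT. Gm15551 held 40 to 316 counts in the 9 wt libraries and 0 to 4 in the 9 ko libraries. All 6 brown adipocyte markers were highest in iBAT (Prdm16 was no longer called against iWAT with library totals alone), and the eWAT markers Wt1, Tcf21 and Upk3b summed to 21.9 to 79.2 CPM (counts relative to the scaled library size) in eWAT and to at most 0.162 CPM elsewhere. The iWAT markers Tbx15 and Lhx8 summed to 20.1 to 33.5 CPM in iWAT, 4.23 to 10.9 CPM in iBAT and at most 0.263 CPM in eWAT. Markers of other tissues stood out in 4 white libraries: the sum of 13 skeletal muscle genes was 5173 CPM in iWAT ko 1, that of 12 lymph node genes was 1367 CPM in iWAT wt 3 and 573 CPM in iWAT ko 2, and that of 8 epididymis genes was 4656 CPM in eWAT ko 3. In the other libraries of the same tissue these sums were at most 10.3, 29.1 and 16.7 CPM. The 10 testis genes summed to 125 CPM in eWAT ko 3, where all other libraries were at or under 9.60 CPM.

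Expression of the respiratory genes was first compared between brown and white adipose tissue. Of the 45 members tested, 43 were higher in iBAT than in iWAT and 1 was lower, by edgeR's quasi-likelihood test at an adjusted p under 0.05, where 24% of all genes tested were higher and 30.3% were lower. Compared with eWAT, again 43 were higher and 1 was lower, where 24.4% and 30.2% of all genes were called. The median log2 fold change of the members was 2.28 against iWAT (a 4.86-fold difference) and 2.56 against eWAT (5.89-fold), and the median of all genes was -0.14 and -0.17. In 42 members all 6 iBAT libraries lay above all 12 white libraries, as in 14.9% of all genes tested, and in 1 member all 6 lay below, as in 11.5% of all genes. The 2 comparisons share the iBAT libraries. The member that was lower was Atp5g1 and the one called in neither direction was Atp5g3, and both encode subunit c of the ATP synthase.

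The median difference was larger for the subunits than for the assembly factors. The 35 subunits tested other than subunit c, counted with cytochrome c, were all higher in iBAT, with a median of 2.47 against iWAT and 2.78 against eWAT on the log2 scale. The 7 assembly factors were all higher as well, with medians of 1.26 and 1.46. These medians describe the lists, and the difference between them was not tested.

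**Figure D1:**
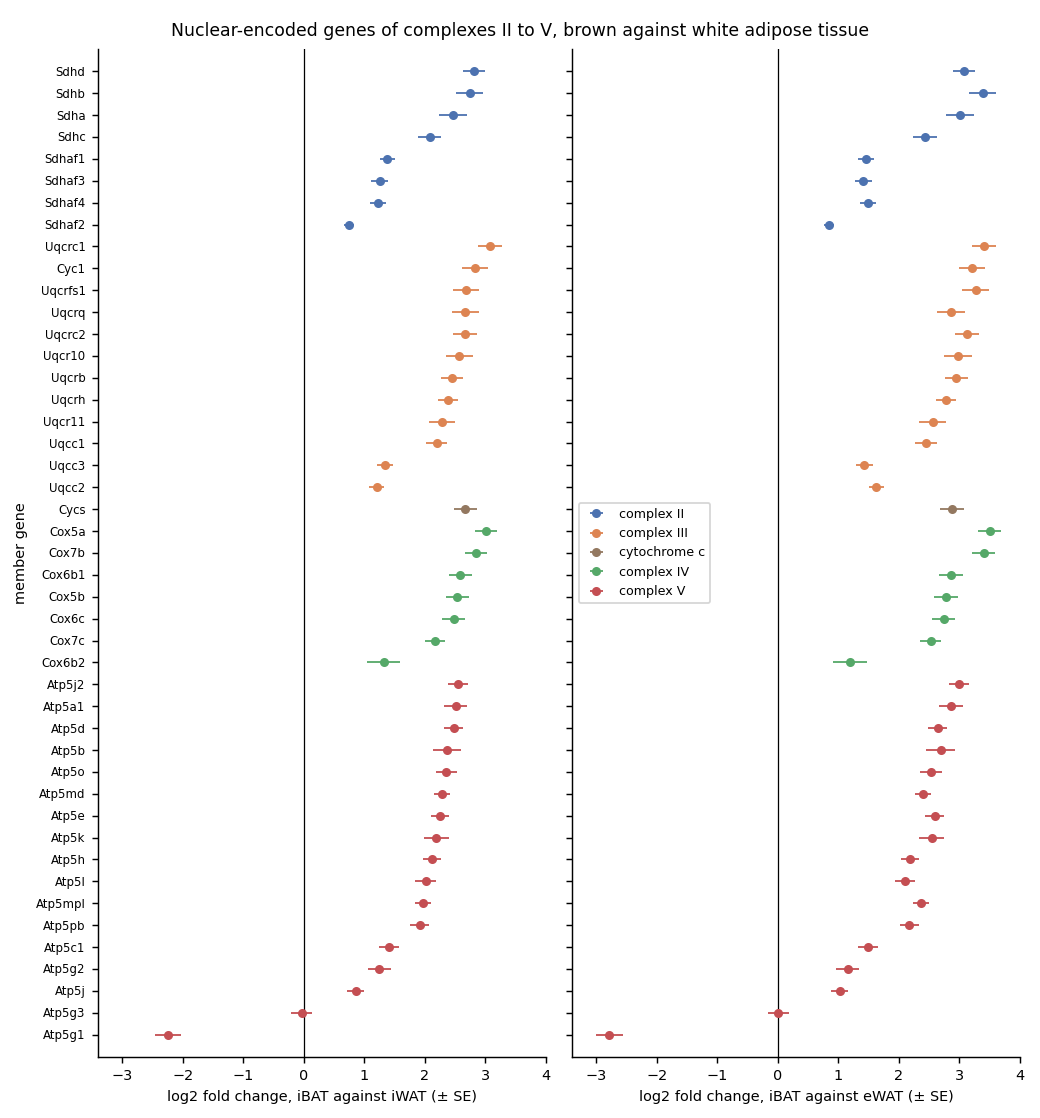
Log2 fold change of each member tested in both comparisons of brown with white tissue, with bars for the standard error, coloured and grouped by complex. Nearly all members lie to the right of 0, and Atp5g1 lies at -2.24 and -2.79.

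In complex II, all 8 members were higher in iBAT. Sdha, the flavoprotein that oxidises succinate, had 2988 to 4315 CPM in iBAT (median 3506), 332 to 906 CPM in iWAT (median 662) and 275 to 532 CPM in eWAT (median 467). The iBAT libraries stood well apart from all white ones, with a log2 fold change of 2.47 ± 0.23 (standard error, SE, n = 6 libraries per tissue, as for all tissue comparisons) against iWAT and 3.02 ± 0.23 against eWAT. Sdhb, the iron-sulphur subunit that passes the electrons on, had 1024 to 1243 CPM in iBAT (median 1130), 98.6 to 242 CPM in iWAT (median 168) and 57.7 to 143 CPM in eWAT (median 116). It was 6.69-fold higher than in iWAT and 10.5-fold higher than in eWAT, again without overlap. Among the membrane anchors, Sdhd showed the largest log2 difference of the complex against iWAT (2.82 ± 0.18), with 835 to 967 CPM in iBAT, 80.9 to 177 CPM in iWAT and 70.8 to 133 CPM in eWAT. The other anchor, Sdhc, was 4.23-fold and 5.41-fold higher.

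The assembly factors of complex II moved less. Sdhaf2, which helps to attach FAD to Sdha, showed the smallest difference of the complex: it had 59.6 to 67.2 CPM in iBAT (median 63.0), 33.1 to 40.3 CPM in iWAT (median 37.6) and 29.2 to 40.4 CPM in eWAT (median 35.3). The groups did not overlap and the log2 fold change was 0.75 ± 0.08 against iWAT (adjusted p = 1.16e-06) and 0.84 ± 0.08 against eWAT (adjusted p = 2.53e-07). When libraries were scaled to their totals alone, which moved the median of all genes by -0.81 and -0.87 on the log2 scale, Sdhaf2 was at -0.05 and -0.02 and no longer called. Sdhaf1, Sdhaf3 and Sdhaf4, of which Sdhaf1 and Sdhaf3 help to insert or protect the iron-sulphur clusters of Sdhb, were between 1.22 and 1.38 higher on the log2 scale against iWAT and between 1.41 and 1.49 higher against eWAT.

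In complex III, all 12 members were higher in iBAT, with a median log2 fold change of 2.51 against iWAT and 2.90 against eWAT. Uqcrc1, a core protein of the matrix side, showed the largest difference against iWAT of all 45 members. It had 1784 to 2158 CPM in iBAT (median 2026), 142 to 328 CPM in iWAT (median 238) and 124 to 233 CPM in eWAT (median 201). This amounted to 8.44-fold more than in iWAT and 10.6-fold more than in eWAT, without overlap.

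The catalytic subunits of complex III followed closely. Cyc1, the haem protein cytochrome c1, had 1395 to 1628 CPM in iBAT (median 1486), 126 to 312 CPM in iWAT (median 200.3) and 103 to 208 CPM in eWAT (median 172). Uqcrfs1, the Rieske iron-sulphur protein, had 1074 to 1396 CPM in iBAT (median 1212), 114 to 282 CPM in iWAT (median 185) and 77.6 to 167 CPM in eWAT (median 134). For both genes every iBAT library lay far above every white library, and the log2 fold changes were 2.83 ± 0.21 and 3.21 ± 0.21 for Cyc1 and 2.68 ± 0.22 and 3.27 ± 0.22 for Uqcrfs1, against iWAT and eWAT in turn. The 5 small accessory subunits (Uqcr10, Uqcr11, Uqcrb, Uqcrh and Uqcrq) lay between 2.28 and 2.67 against iWAT and between 2.56 and 2.98 against eWAT.

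The smallest difference against iWAT in complex III was that of Uqcc2, an assembly factor that works with Uqcc1 on newly made cytochrome b. It had 49.6 to 58.6 CPM in iBAT (median 54.6), 21.4 to 28.4 CPM in iWAT (median 23.1) and 11.6 to 21.7 CPM in eWAT (median 18.5). Its log2 fold change was 1.21 ± 0.12 and 1.63 ± 0.12. Uqcc1 itself was 4.58-fold and 5.46-fold higher, the largest difference of the 7 assembly factors in both comparisons.

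Cycs, which encodes cytochrome c, the carrier between complexes III and IV, had 366 to 455 CPM in iBAT (median 417), 36.3 to 92.6 CPM in iWAT (median 67.1) and 39.6 to 72 CPM in eWAT (median 54.8). It was 6.37-fold and 7.37-fold higher in iBAT, and the groups did not overlap. The row of Cycs held only 26.2% to 34.3% of the counts it shared with 3 near-identical pseudogene rows, chiefly Gm10053. With their counts added, the log2 fold change was 2.85 against iWAT and 3.06 against eWAT, compared with 2.67 ± 0.19 and 2.88 ± 0.20 for the row of Cycs alone.

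In complex IV, the 7 members tested were all higher in iBAT, with a median of 2.54 against iWAT and 2.78 against eWAT. Cox5a, which contacts the catalytic core from the matrix side, had 882 to 1073 CPM in iBAT (median 965), 91.0 to 177 CPM in iWAT (median 111) and 59.2 to 106 CPM in eWAT (median 88.6). Its log2 fold change of 3.50 ± 0.19 against eWAT was the largest of all 45 members, and it was 3.01 ± 0.18 against iWAT. Cox7b, a small transmembrane subunit encoded on the X chromosome, had 716 to 855 CPM in iBAT (median 734), 68.3 to 148 CPM in iWAT (median 102) and 52.7 to 92.7 CPM in eWAT (median 73.7). Its log2 fold change was 2.85 ± 0.18 and 3.41 ± 0.19. Neither gene overlapped between brown and white libraries.

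Complex IV has paralogous subunits for several tissues, and 2 members are testis forms. The common form Cox6b1, on the intermembrane side, had 961 to 1160 CPM in iBAT (median 1029), 107 to 243 CPM in iWAT (median 176) and 99.2 to 176 CPM in eWAT (median 150.01). Its testis counterpart Cox6b2 was far lower, at 3.65 to 5.75 CPM in iBAT (median 5.14), 1.27 to 2.93 CPM in iWAT (median 2.0) and 1.16 to 3.68 CPM in eWAT (median 1.95), with the highest eWAT library just above the lowest iBAT library. Cox6b2 was nonetheless called higher in iBAT by 1.32 ± 0.28 and 1.19 ± 0.28 on the log2 scale (adjusted p = 0.000757 and 0.00165), which was the smallest difference of the complex, and it was no longer called with library totals alone (0.49 and 0.30). Cox7b2, the testis form of Cox7b, had 0 counts in all libraries except eWAT ko 2 with 2 and eWAT ko 3 with 5. A count of 0 allows up to 3 counts, or 0.0973 to 0.235 CPM in the 16 libraries at 0, which covers counting error only.

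In complex V, 15 of 17 members were higher in iBAT. Without the subunit c genes all 14 were higher, with a median of 2.22 against iWAT and 2.47 against eWAT. Atp5b, the catalytic beta subunit of the F1 head, had 6697 to 8290 CPM in iBAT (median 7576), 760.1 to 2046 CPM in iWAT (median 1577) and 677 to 1481 CPM in eWAT (median 1254). It was 5.17-fold and 6.46-fold higher in iBAT without overlap, and per kilobase of exon it was the most abundant member in each tissue, followed by the alpha subunit Atp5a1. Atp5j2, a small subunit of the membrane part, showed the largest difference of the complex, with 744 to 894 CPM in iBAT, 92.4 to 189.5 CPM in iWAT and 76.4 to 122 CPM in eWAT and a log2 fold change of 2.55 ± 0.17 and 2.99 ± 0.17.

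Other ATP synthase subunits differed less between the tissues. Atp5j, coupling factor 6 of the peripheral stalk, had 221 to 258 CPM in iBAT (median 234), 95.4 to 166 CPM in iWAT (median 137) and 85.7 to 143 CPM in eWAT (median 120.1). It was 1.82-fold and 2.03-fold higher, called only with scaling of the libraries, since with library totals alone the log2 fold changes were 0.08 and 0.17. Atp5c1, the gamma subunit that turns in the F1 head, was 2.65-fold and 2.81-fold higher, and the other 4 subunits of the F1 head were between 2.25 and 2.51 higher on the log2 scale against iWAT.

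Subunit c forms the ring that turns as protons pass, and mammals have several nuclear genes for it, each with its own targeting peptide in front of the same mature protein. In mouse these are Atp5g1 (ENSMUSG00000006057.15, chr11:96068852-96075670, minus strand), Atp5g2 (ENSMUSG00000062683.11, chr15:102662864-102672352, minus strand) and Atp5g3 (ENSMUSG00000018770.9, chr2:73908447-73911326, minus strand), in GRCm38. The last 228 bases of the coding sequence, with 75 codons and the stop codon, are shown because the 3 genes encode there the same 75 residues with different bases. The row Gm10175, a transcribed processed pseudogene on chromosome 7, is shown with them. Capitals in Atp5g1 mark bases at which Atp5g2 or Atp5g3 differs, capitals in Atp5g2 and Atp5g3 mark bases that differ from Atp5g1, and Gm10175 has none because it was compared with Atp5g2.
Atp5g1: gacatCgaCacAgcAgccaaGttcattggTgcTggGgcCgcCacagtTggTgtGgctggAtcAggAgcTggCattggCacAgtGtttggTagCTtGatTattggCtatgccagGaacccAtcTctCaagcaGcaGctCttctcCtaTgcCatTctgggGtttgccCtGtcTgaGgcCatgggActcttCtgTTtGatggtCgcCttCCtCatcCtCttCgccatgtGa
Atp5g2: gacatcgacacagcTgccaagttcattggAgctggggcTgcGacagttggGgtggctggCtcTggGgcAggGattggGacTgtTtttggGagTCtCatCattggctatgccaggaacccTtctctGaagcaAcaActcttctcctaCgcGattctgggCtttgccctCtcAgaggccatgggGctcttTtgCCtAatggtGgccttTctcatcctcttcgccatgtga
Atp5g3: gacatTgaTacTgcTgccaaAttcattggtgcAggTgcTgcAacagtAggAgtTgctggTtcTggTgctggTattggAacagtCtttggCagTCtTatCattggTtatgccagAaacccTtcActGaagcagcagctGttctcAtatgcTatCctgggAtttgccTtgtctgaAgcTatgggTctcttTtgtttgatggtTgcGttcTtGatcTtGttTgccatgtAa
Gm10175: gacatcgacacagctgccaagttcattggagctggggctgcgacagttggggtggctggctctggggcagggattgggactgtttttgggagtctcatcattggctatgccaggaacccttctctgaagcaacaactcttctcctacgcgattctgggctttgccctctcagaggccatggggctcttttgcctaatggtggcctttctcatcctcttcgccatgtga
Atp5g1 and Atp5g2 differ at 34 of these 228 bases, Atp5g1 and Atp5g3 at 46, and Atp5g2 and Atp5g3 at 49. The longest run without a difference between any pair of the 3 genes is 21 bases, shorter than the sequenced reads. Gm10175 is identical to Atp5g2 over all 228 bases, and the 2 share 596 windows of 50 bases in their transcripts. Another gene, Gm10231, shares 392 such windows with Atp5g2 and was not analysed here.

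The 3 genes differed from each other. Atp5g1 had 4.89 to 9.17 CPM in iBAT (median 6.72, from 79 to 142 counts), 26.2 to 38.8 CPM in iWAT (median 32.9) and 37.7 to 86.0 CPM in eWAT (median 39.6). All iBAT libraries lay below all white libraries, and the gene was 4.72-fold lower than in iWAT, with a log2 fold change of -2.24 ± 0.21 (edgeR, adjusted p = 2.42e-07), and 6.90-fold lower than in eWAT, with -2.79 ± 0.22 (adjusted p = 1.79e-08). The highest value came from eWAT ko 3, the library with epididymis transcripts, while the other 5 eWAT libraries lay between 37.7 and 41.4 CPM, and without that library the log2 fold change against eWAT was -2.52.

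Atp5g3 was the most abundant of the 3 in every library. It had 280.2 to 339 CPM in iBAT (median 300.2), 211 to 410.0 CPM in iWAT (median 331) and 189 to 367 CPM in eWAT (median 317). The iBAT libraries lay inside the range of the white ones, and the log2 fold change was -0.03 ± 0.17 against iWAT (adjusted p = 0.888) and 0.01 ± 0.17 against eWAT (adjusted p = 0.979), with a sign that changed between settings. It was called lower in iBAT against iWAT without the 4 libraries that held transcripts of other tissues (-0.31, adjusted p = 0.0273) and against both white tissues with library totals alone (-0.81 and -0.85), where it lay 0.14 and 0.20 above the median of all genes.

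Atp5g2 was higher in iBAT, at 15.3 to 27.7 CPM (median 21.9), compared with 6.19 to 13.4 CPM in iWAT (median 8.63) and 6.79 to 12.3 CPM in eWAT (median 9.97). The groups did not overlap, with 1.25 ± 0.19 and 1.15 ± 0.19 on the log2 scale, but with library totals alone it was at 0.29 and no longer called against eWAT. Most of the counts of this sequence stood in the row of Gm10175, however, which had 255 to 278 CPM in iBAT, 86.7 to 128 CPM in iWAT and 78.7 to 128 CPM in eWAT, so that Atp5g2 held 5.58% to 9.92% of the sum of the 2 rows. Added together they gave a log2 fold change of 1.27 against iWAT and 1.34 against eWAT. How the reads divide between the 2 rows was set by the quantification and cannot be told from the counts.

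**Figure D2:**
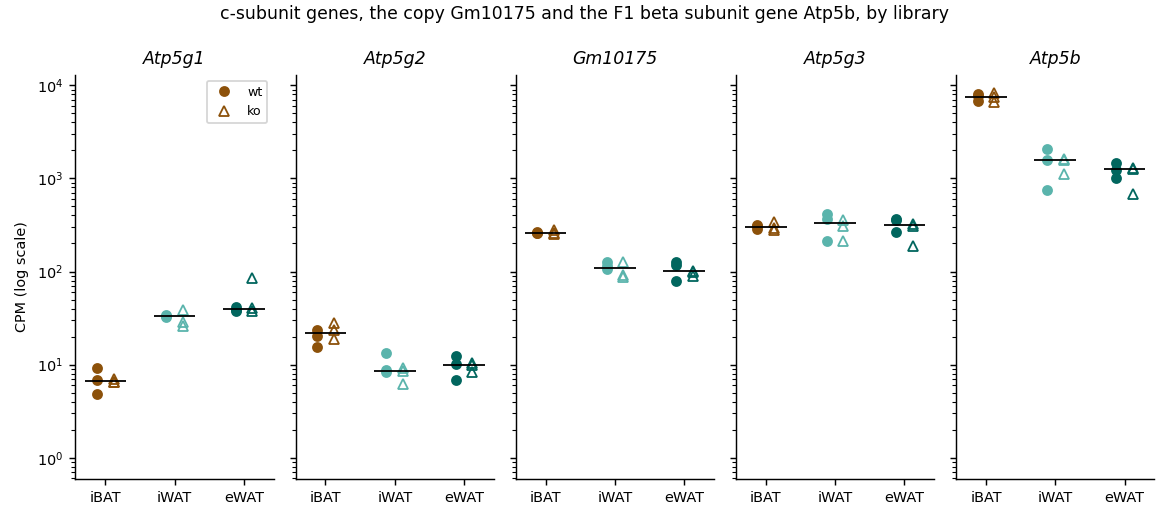
CPM on a log scale in each of the 18 libraries for Atp5g1, Atp5g2, Atp5g3, Gm10175 and Atp5b, with filled circles for wt, open triangles for ko and a line at the median of the 6 libraries of a tissue. The iBAT points of Atp5g1 lie below all white points, those of Atp5g3 among them, and those of Atp5g2, Gm10175 and Atp5b above them.

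Summed over the 3 subunit c genes, the means of the tissues differed by less than the spread between white libraries. The mean was 332 ± 25.7 CPM (standard deviation, SD, n = 6) in iBAT, compared with 353 ± 85.3 CPM in iWAT and with 359 ± 53.0 CPM in eWAT. With Gm10175 included it was 595 ± 32.6, 462 ± 95.2 and 462 ± 69.9 CPM, a 1.29-fold difference against each white tissue. These sums depend on the scaling: with library totals alone the mean in iBAT was lower than in iWAT and eWAT, by 1.82-fold and 1.96-fold for the 3 genes and by 1.34-fold and 1.41-fold with Gm10175. In the scaled values mean Atp5b was 5.18-fold and 6.48-fold higher. The ratio of the subunit c sum to Atp5b was 0.0389 to 0.0514 in iBAT, compared with 0.222 to 0.333 in iWAT and with 0.274 to 0.421 in eWAT, and with Gm10175 it was 0.0696 to 0.0896, 0.279 to 0.483 and 0.353 to 0.552. Under either count the iBAT libraries lay below all white libraries. Per kilobase of exon, Atp5g3 ranked 31 of the 46 members in iBAT, 7 in iWAT and 5 in eWAT.

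The make-up of the subunit c transcripts also differed. Atp5g1 made up 1.47% to 2.64% of the counts of the 3 genes in iBAT, but 6.72% to 13.2% in iWAT and 9.37% to 30.2% in eWAT, where the highest value is eWAT ko 3. Atp5g3 made up 90.5% to 92.9%, 83.5% to 90.9% and 66.4% to 88.1%. Per kilobase of exon its median share was 90.6% in iBAT, lower than the 92.1% in iWAT and 91.3% in eWAT, so that the order of the tissues turned. When Gm10175 was counted with Atp5g2, the median share of Atp5g3 was 51.1% in iBAT, below the 69.0% in iWAT and 68.0% in eWAT, and Atp5g1 had a median of 1.14%, 7.33% and 8.42%.

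Atpif1, which encodes the inhibitor of the ATP synthase and is not covered by the symbols above, was the other gene around complex V that was lower in iBAT. It had 7.28 to 11 CPM in iBAT (median 8.51), 14.2 to 25.8 CPM in iWAT (median 16.5) and 16.8 to 64.6 CPM in eWAT (median 19.5). No iBAT library reached a white one, with -1.03 ± 0.30 against iWAT (edgeR, adjusted p = 0.00817) and -1.61 ± 0.31 against eWAT (adjusted p = 0.000284). The value of 64.6 CPM was again eWAT ko 3, and the other 5 eWAT libraries had 16.8 to 23.4 CPM. The assembly factors of complex V, Atpaf1, Atpaf2, Tmem70 and Tmem242, were all higher in iBAT, by 0.84 to 1.93 on the log2 scale against iWAT, where with library totals alone Atpaf1 (0.05) was no longer called.

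Summed by complex, the levels in iBAT exceeded those in white tissue least for complex V. The mean sum of CPM in iBAT was 5.47-fold that of iWAT for complex II, 6.29-fold for complex III, 6.38-fold for cytochrome c, 5.99-fold for complex IV and 4.56-fold for complex V. Against eWAT it was 7.59-fold, 8.21-fold, 7.42-fold, 7.58-fold and 5.43-fold in the same order. With library totals alone the folds were smaller, from 2.65 for complex V to 3.72 for cytochrome c against iWAT, and from 2.99 for complex V to 4.53 for complex III against eWAT. Complex V accordingly took 46.6% to 47.5% of the CPM of complexes II to V in iBAT (median 47.3%), 52.0% to 55.7% in iWAT (median 54.2%) and 55.4% to 57.5% in eWAT (median 56.3%), so that iBAT lay below all white libraries. Per kilobase of exon the order was the same, with medians of 34.4%, 41.4% and 43.1%. Complex III took 23.4% to 24.2% in iBAT, above its 18.4% to 20.5% in iWAT and 18.1% to 19.3% in eWAT. These sums are led by a few abundant genes and cover only the members listed, which leave out some complex IV subunits.

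**Figure D3:**
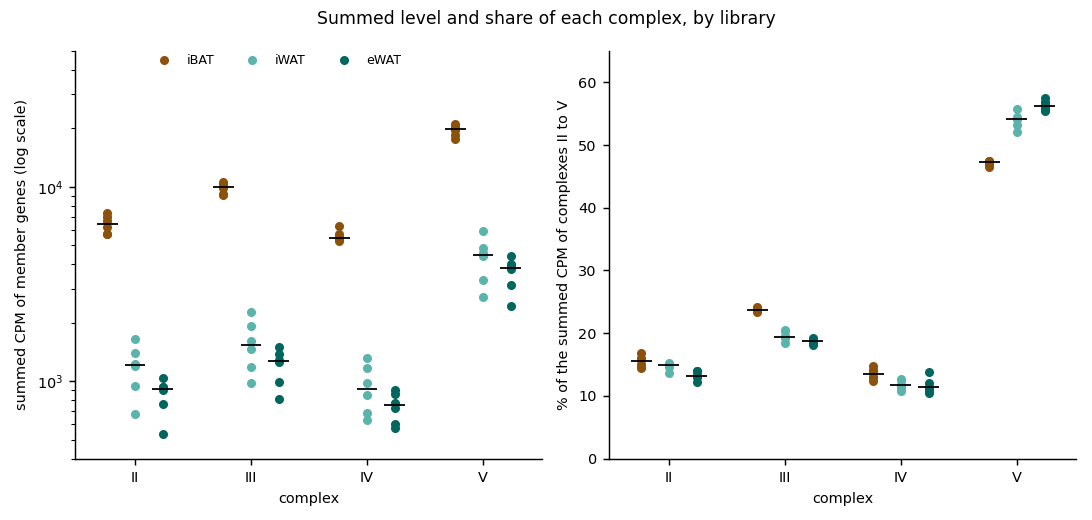
Summed CPM of the members of complexes II, III, IV and V in each library on a log scale (left), and each complex as a percentage of their total (right), with a line at the median of the 6 libraries of a tissue. The iBAT libraries lie above the white libraries in every sum, and their complex V share lies below, at a median of 47.3%.

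Within the white tissues the level of the members varied together. Summed over all members, iWAT wt 3 had 5015 CPM and iWAT ko 2 had 6198 CPM, where the other 4 iWAT libraries had 7969 to 11224 CPM, and eWAT ko 3 had 4448 CPM, where the other eWAT libraries had 5508 to 7903 CPM. The library iWAT wt 3 was the lowest of its tissue for 33 members and eWAT ko 3 for 35. In the same libraries the adipocyte markers Adipoq, Plin1, Fabp4 and Lep summed to 6288 CPM (iWAT wt 3), 8740 CPM (iWAT ko 2) and 7504 CPM (eWAT ko 3), compared with 11998 to 18136 CPM in the other white libraries. These are also libraries with lymph node or epididymis transcripts, and the part of those tissues in the members' levels was not tested. Without the 4 libraries with transcripts of other tissues, 43 members were still higher in iBAT in both comparisons.

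The partners of these genes were compared in the same way, from lists made with earlier results of these data known. The 6 mitochondrially encoded partners (mt-Cytb of complex III, mt-Co1 to mt-Co3 of complex IV, mt-Atp6 and mt-Atp8 of complex V) were all higher in iBAT, with a median log2 fold change of 2.68 against iWAT and 3.33 against eWAT. The highest against iWAT was mt-Co2 (2.76 ± 0.28) and the lowest mt-Co1 (2.46 ± 0.33). Of 11 complex IV subunits not covered by the symbols above, 9 were tested and 8 were higher, with a median of 2.20 and 2.55. The largest differences were those of Cox7a1 and Cox8b, forms of heart, muscle and brown adipose tissue. Cox7a1 had 413 to 584 CPM in iBAT, 0.723 to 10.2 CPM in iWAT and 0.621 to 1.63 CPM in eWAT, with log2 fold changes of 6.40 ± 0.46 and 8.82 ± 0.52. Cox8b had 1042 to 1301 CPM in iBAT, 11.4 to 104 CPM in iWAT and 1.15 to 6.79 CPM in eWAT, with 4.13 ± 0.48 and 8.39 ± 0.59. The exception was Cox4i2, the oxygen-regulated form of lung, at 4.47 to 5.49 CPM in iBAT, 3.03 to 4.44 CPM in iWAT and 2.01 to 5.48 CPM in eWAT. With library totals alone its log2 fold change was below 0, at -0.41 against iWAT and -0.63 against eWAT, and it was called lower than in eWAT.

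Further assembly factors behaved like those among the members. Of 23 assembly factors of complex IV tested, 22 were higher in iBAT in each comparison, with a median of 1.28 against iWAT and 1.52 against eWAT. The copper chaperone Cox17 was the highest (2.50 ± 0.14 and 2.82 ± 0.15), and Coa4 was not called (0.50 ± 0.30, edgeR, adjusted p = 0.169 against iWAT). With library totals alone 17 of the 23 were higher against iWAT and 16 against eWAT, and Surf1 was then lower than in eWAT (-0.27). Lyrm7, Bcs1l and Ttc19, which act late in complex III assembly, were all higher, by 2.29 ± 0.17, 1.34 ± 0.14 and 1.03 ± 0.12 against iWAT, but with library totals alone Ttc19 was no longer called against eWAT (0.12). The 16 genes used as a reference for mitochondrial mass, among them citrate synthase and import proteins, were all higher, with a median of 1.52 and 1.46, below the median of the members in both comparisons. They ranged in iBAT against iWAT from 0.57 ± 0.08 for Tomm20, an import receptor, to 2.36 ± 0.26 for Cs, citrate synthase. Against eWAT Cs was at 2.84, so that this gene lay above the median of the members in both comparisons (2.28 and 2.56). With library totals alone 13 and 14 of the 16 were higher, and Tomm20 was lower (-0.23 and -0.42).

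Regulators known to act on respiratory genes were called in both directions. Against iWAT 7 of 11 were higher and 3 lower, where 24% of all genes tested were higher and 30.3% lower. Against eWAT 7 were higher and 2 lower, where 24.4% and 30.2% of all genes were. The regulators called lower were thus no larger a share than among all genes. The coactivator Ppargc1a had 32.1 to 272 CPM in iBAT (median 51.3), 4.37 to 17.2 CPM in iWAT and 3.78 to 9.65 CPM in eWAT, with a log2 fold change of 3.34 ± 0.54 and 3.91 ± 0.56. Its relative Ppargc1b was higher by 3.76 ± 0.28 and 4.07 ± 0.28, and the nuclear receptor Esrra, with which they act, by 2.22 ± 0.15 and 2.40 ± 0.15. Of the related receptors, Esrrg showed the largest difference of the list against iWAT (3.87 ± 0.70) and Esrrb the largest against eWAT (4.31 ± 0.57). The lowest in both comparisons was Pprc1, a coactivator of the Ppargc1a family, which was lower by 0.72 and 0.55 on the log2 scale (SE 0.15 in both). Gabpa, the DNA-binding subunit of GABP, was higher by 1.10 ± 0.08 and 1.31 ± 0.08, whereas its partner subunit Gabpb1 was lower, at -0.40 ± 0.12 and -0.37 ± 0.12. Nrf1 was 1.24-fold lower than in iWAT (-0.31 ± 0.11, edgeR, adjusted p = 0.0258, but 0.32 without the 4 libraries with transcripts of other tissues) and not called against eWAT (-0.18 ± 0.11, adjusted p = 0.181). With library totals alone Nrf1 was called lower in both comparisons (-1.14 and -1.04), and 4 of the 11 regulators were lower in each. The median of all genes was then -0.95 and -1.04, so these calls cannot be told apart from the shift of all genes under that scaling.

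**Figure D4:**
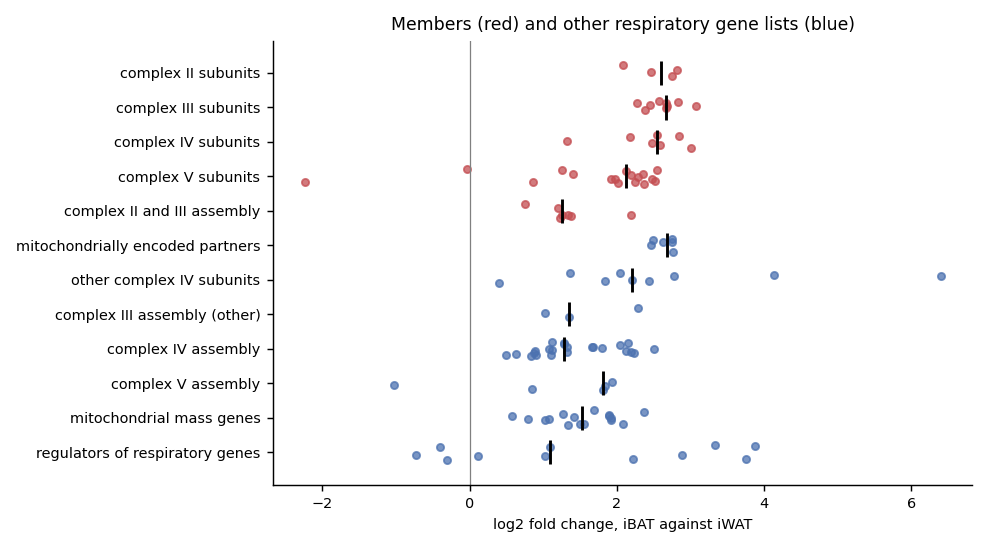
Log2 fold change for iBAT against iWAT of the members tested other than Cycs (red) and of the genes tested in the other respiratory lists (blue). Member subunits are grouped by complex, their assembly factors are drawn together, and a line marks the median of each group. The mitochondrially encoded partners (median 2.68) lie with the subunits, while the lists of assembly factors of complexes II, III and IV and the mass reference (median 1.52) lie lower.

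Promoters were searched for the core motifs of regulators known to act on these genes. RefSeq start sites (GRCm38.p6) were matched for 38 of the 46 members, with 41 promoters from 250 bases before to 50 bases after the start, and both strands were read. The NRF1 core CGCANGCG was present in 48.8% of the 41 member promoters and in 8.2% of all 32851 promoters of the table. The ETS core CCGGAAG, bound by GABP, was present in 34.1% compared with 8.9%, the ERR core AAGGTCA in 14.6% compared with 4.7%, and the YY1 core AAGATGGC in 9.8% compared with 2.7%. Of the 38 genes, 28 held at least 1 of these 4 motifs and 10 held none, among them Atp5b, Atp5g1, Uqcrfs1, Cox5a and Cox5b. Only exact matches to these letters were counted, so the lack of a match does not show that a site is absent. The NRF1 core was found in 11 of 18 promoters of complex V, 4 of 8 of complex III, 4 of 7 of complex II and 0 of 7 of complex IV. A CCAAT box stood in 53.7% of member promoters and 37.4% of all.

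Parts of 3 promoters are shown to set a gene that was lower in iBAT (Atp5g1, chr11:96075602-96075881, minus strand) beside one that was not called (Atp5g3, chr2:73911297-73911576, minus strand) and one of the most raised (Sdhb, chr4:140961021-140961300, plus strand). Each has 280 bases in the direction of transcription, of which the last 30 lie after the start, and capitals mark the motifs found.
Atp5g1: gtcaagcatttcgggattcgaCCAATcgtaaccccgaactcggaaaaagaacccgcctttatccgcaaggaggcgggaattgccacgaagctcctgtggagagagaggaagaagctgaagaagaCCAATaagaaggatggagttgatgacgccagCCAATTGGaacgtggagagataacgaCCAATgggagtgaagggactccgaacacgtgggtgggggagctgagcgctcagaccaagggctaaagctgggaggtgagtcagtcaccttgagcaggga
Atp5g3: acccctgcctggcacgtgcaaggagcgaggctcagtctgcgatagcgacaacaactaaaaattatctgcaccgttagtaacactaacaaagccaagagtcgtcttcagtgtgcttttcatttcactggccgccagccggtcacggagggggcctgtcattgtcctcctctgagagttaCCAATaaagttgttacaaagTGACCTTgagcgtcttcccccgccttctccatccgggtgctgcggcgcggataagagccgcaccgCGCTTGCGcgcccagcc
Sdhb: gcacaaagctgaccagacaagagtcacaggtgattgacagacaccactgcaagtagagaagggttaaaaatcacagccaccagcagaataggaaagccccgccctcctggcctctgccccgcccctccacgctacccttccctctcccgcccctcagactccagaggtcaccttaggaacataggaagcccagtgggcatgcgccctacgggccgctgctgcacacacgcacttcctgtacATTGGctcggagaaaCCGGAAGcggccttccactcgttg
The Atp5g1 stretch held 5 CCAAT matches, a pair of which overlap on opposite strands, and none of the other motifs. The Atp5g3 stretch held a CCAAT box, an ERR core that began 52 bases before the start and an NRF1 core that began at base 14 after it. The Sdhb stretch held a CCAAT box and an ETS core. A match is not evidence of binding.

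The white tissues were then compared with each other. Of the 45 members, 2 were higher in iWAT than in eWAT and 0 were lower, where 5.7% and 4.5% of all genes tested were called. These were Cox7b (0.56 ± 0.17, edgeR, adjusted p = 0.0489) and Uqcc2 (0.42 ± 0.12, adjusted p = 0.0363). At an unadjusted p under 0.05 there were 14 members, 13 higher and 1 lower, where 25.5% of all genes passed that limit. Of the 45, 42 lay above 0 and 3 below, where 48.7% of all genes lay below 0. The median was 0.27, compared with 0.01 over all genes. Of the 6 brown adipocyte markers, 5 were called higher in iWAT (median 2.99). Summed, these markers had 20.9 to 238 CPM in iWAT and 11.3 to 17.2 CPM in eWAT, and iWAT wt 2 was the highest and iWAT wt 3 the lowest iWAT library both for this sum and for that of the members. Their part in the result was not tested. The one that lay lower was Atp5g1, at -0.55 ± 0.20 (edgeR, adjusted p = 0.0948). The number called higher depended on the libraries and the test. It was 27 without the 4 libraries with transcripts of other tissues, where 5.7% of all genes tested were called higher, and 1 without eWAT ko 3 alone, where 4.93% were. Leaving out the 4 removes iWAT ko 1, ko 2 and wt 3, the lowest of iWAT in summed members (7969, 6198 and 5015 CPM). The iWAT libraries kept had 8454 to 11224 CPM. The number called higher was 1 with the mouse as a block (4.65% of all genes), 9 with DESeq2 (8.22%) and 16 with limma voom (8.23%).

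Loss of Gm15551 was the study's main question, and the members were compared between genotypes in each tissue and across tissues. None of the 45 was called in any of these comparisons by edgeR, where 0.00534% of all genes tested were called across tissues, 0% in iBAT, 0% in iWAT, 0.00534% in eWAT and 0% for the interaction of genotype with tissue. None had an unadjusted p under 0.05 in any of them, and DESeq2 and limma voom also called 0. The smallest unadjusted p across tissues was 0.155.

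Across tissues 40 of 45 members lay below 0 in ko, compared with 48.7% of all genes, with a median log2 fold change of -0.08. Within tissues the number below 0 was 26 in iBAT (median -0.01), 41 in iWAT (median -0.10) and 38 in eWAT (median -0.18), compared with 49.9%, 52.5% and 48.9% of all genes. Some other lists leaned the same way: 14 of 16 genes of the mass reference lay below 0 across tissues, 19 of 23 complex IV assembly factors in each white tissue, and all 4 adipocyte markers in each white tissue. Across tissues the mitochondrially encoded partners did not, with 3 of 6 below 0 (median 0.01), nor did the brown adipocyte markers, with 2 of 6 (median 0.10). In iWAT and eWAT in turn, 4 of 6 (median -0.06) and 2 of 6 (median 0.07) of these partners lay below 0. For the brown adipocyte markers it was 2 of 6 (median 0.11) and 4 of 6 (median -0.07). In iWAT the libraries with transcripts of other tissues were ko 1, ko 2 and wt 3, and wt 2 was the highest library for 40 members. Without those 3 libraries and eWAT ko 3 the number below 0 was 31 across tissues (median -0.02), 29 in iBAT (median -0.01) and 30 in eWAT (median -0.02). In iWAT that leaves a single ko library (ko 3) against wt 1 and wt 2, so it gives no comparison of the genotypes there. In the comparison across tissues Atp5mpl, a small membrane subunit of complex V, had the smallest p of the members. It had 223 to 228 CPM in wt and 199.7 to 250.5 CPM in ko iBAT, 47.4 to 79.7 and 46.2 to 63.7 CPM in iWAT, and 40.1 to 51.1 and 32.8 to 45.9 CPM in eWAT. Its groups overlapped in every tissue, with -0.16 ± 0.10 across tissues. Next were Uqcrh, the hinge protein of complex III (-0.15 ± 0.13), and Atp5e, the epsilon subunit of the F1 head (-0.14 ± 0.12). In eWAT the ko group holds eWAT ko 3, the lowest library for 35 members. Atp5g1 was the member with the largest upward value in eWAT, 0.51 ± 0.28 (edgeR, adjusted p = 1), with wt at 38.0 to 41.4 CPM and ko at 37.7 to 86.0 CPM.

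**Figure D5:**
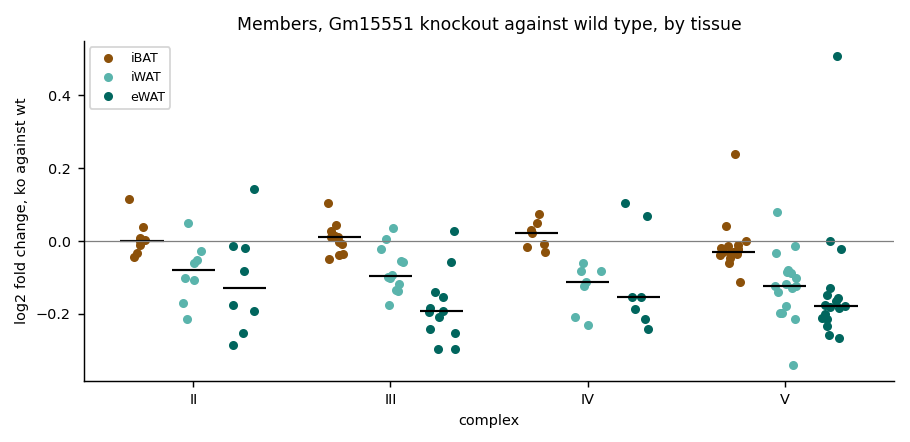
Log2 fold change of ko against wt in iBAT, iWAT and eWAT for each member of complexes II to V tested, with a line at the median of each complex and tissue. The points lie close to 0 in iBAT and mostly below 0 in iWAT and eWAT, where the point at 0.51 is Atp5g1, and none was called.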

How the data were processed

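NEBNext Ultra II libraries were read in pairs. The authors used cutadapt for read quality and salmon for quantification (GRCm38), and deposited estimated counts per gene, as whole numbers and not normalised. It is not given in the sources used here whether GENCODE M22 was combined with RNAcentral, which strand setting was used or how transcripts were summed to genes. Reads that match several genes are divided by a statistical model, so members with near-identical copies are uncertain (11 members share at least 100 windows of 50 bases with 20 other genes analysed here). There were 0 sample columns that could not be assigned to a library.

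Counts were tested with edgeR 4.0.16 (R 4.3.3) after filterByExpr and scaling by the trimmed mean of M values (TMM), with tissue and genotype as terms, or with 1 mean per group for the genotype effect within a tissue and the interaction. Adjusted p follows Benjamini and Hochberg over the 18728 genes tested, with a threshold of 0.05. SE was taken from the log2 fold change and the square root of F, and CPM is relative to the scaled library total. Intervals from counts of 0 cover counting error only. Sequences and tables were handled in Python 3.11.15. The test of iBAT against iWAT was also run on simulated counts, in which few genes changed and as many rose as fell. That run checks neither the scaling of the real libraries nor the genotype tests.

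Titles gave the tissue, the genotype and the number of the replicate. Libraries of the same genotype and number came from the same mouse by the mouse identifier in the labels. Deviations from the group means correlated between libraries of the same mouse at r = -0.17 to 0.33 across genes, in 18 pairs. No source says that each number marks a separate litter. Members and lists were chosen with earlier results of these data known. Given with all values were the catalytic subunits, cytochrome c, the c-subunit genes, the inhibitor Atpif1, the testis isoforms with their common forms, the members with the largest and smallest log2 fold change against iWAT in each complex, and the 3 with the smallest p for genotype across tissues. Positions are from GENCODE M21 (GRCm38), coding sequences from its transcripts and promoters from RefSeq. Alternatives were other scalings, filters and tools (DESeq2 1.42.0, limma 3.58.1), blocks, and leaving out mice or libraries. Library totals alone, adding near-identical copies and leaving out eWAT ko 3 alone were chosen after seeing the data.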

Additional observations from a re-analysis of the deposited data

Results flagged for a closer look

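Among 90 groups of 6 libraries examined for a library far from the rest, 3 were found, and chance gives about 1 in 20 groups. All 3 were the library eWAT ko 3. Atp5g1 had 86.0 CPM there, where the other 5 eWAT libraries had 37.7 to 41.4 CPM. Atpif1 had 64.6 CPM there, where the other 5 had 16.8 to 23.4 CPM. Cox7b2 had 0.239 CPM there, where the other 5 had 0 to 0.0485 CPM.

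Cox7b2 was too low to be tested, and all wt libraries were at 0. Its 5 counts in eWAT ko 3 lie above the 3 that a count of 0 allows. They carry counting error of their own, so this does not show a difference. With nearly all libraries at 0, the search for a library far from the rest cannot judge this gene. In the same library the 8 epididymis genes summed to 4656 CPM and the 10 testis genes to 125 CPM, and the part of these tissues in the 3 values was not tested.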

How the results depend on the processing

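The number of members higher in iBAT stayed between 40 and 43 against iWAT and between 39 and 43 against eWAT in all 20 alternatives of each. The number lower was 2 against iWAT without the 4 libraries with transcripts of other tissues, and 2 against each white tissue with library totals alone. Leaving out each mouse in turn gave 43 and 1 every time. In iWAT against eWAT the number higher was 0 with no filter, 4 with at least 10 counts in every library, 27 without the 4 libraries, 1 without eWAT ko 3 alone, 5 with library totals, 9 with DESeq2, 16 with limma voom, 1 with the mouse as a block, 0 in wild type libraries only, 0 with an absolute log2 fold change over 1 and 0 to 7 when each mouse was left out. The cause was not tested.

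Atp5g3 changed sign. Against iWAT it was 0.014 with the mouse as a random effect and -0.16 to 0.085 when each mouse was left out. Against eWAT it was -0.037 with no filter, -0.073 with at least 10 counts, -0.099 without the 4 libraries, -0.092 without eWAT ko 3, -0.85 with library totals, -0.14 with voom, -0.12 in wild type libraries and -0.075 to 0.077 when each mouse was left out. Sdhaf2 was -0.047 and -0.024 with library totals. Of 814 alternative values of single genes, 774 kept direction and call.

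Per kilobase of exon the median complex V share was 34.4%, 41.4% and 43.1% in iBAT, iWAT and eWAT. Among the c-subunit genes the medians per kilobase were 0.913% and 4.37% for Atp5g1 in iBAT and iWAT, 8.38%, 3.37% and 3.60% for Atp5g2 in the 3 tissues and 92.1% for Atp5g3 in iWAT. With Gm10175 counted with Atp5g2 they were 1.14% for Atp5g1 in iBAT, 47.9%, 25.3% and 24.1% for Atp5g2, and 51.1%, 69.0% and 68.0% for Atp5g3.

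No genotype comparison called a member in any of its 16 to 18 alternatives. Same-numbered wt and ko libraries correlated at r = -0.47 to 0.55 in 9 pairs, and no label says that a number marks a shared litter, so a pairing of wt with ko by number was not established. The replicate number as a block left 0 members called. The block by mouse changed no other call. Cox7b2, with 0 to 5 counts a library, did not pass the filter on low counts.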

Other observations

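The forms of complex IV subunits known from heart, muscle and brown adipose tissue were also higher in iWAT than in eWAT. Cox8b had 11.4 to 104 CPM in iWAT and 1.15 to 6.79 CPM in eWAT, without overlap and with a log2 fold change of 4.25 ± 0.50 (edgeR, adjusted p = 4.16e-05). Cox7a1 had 0.723 to 10.2 CPM in iWAT and 0.621 to 1.63 CPM in eWAT, where iWAT wt 3 lay inside the eWAT range, with 2.42 ± 0.42 (edgeR, adjusted p = 0.0017). The lowest iWAT value of both genes was that of iWAT wt 3, the library with the most lymph node transcripts. Without the 4 libraries with transcripts of other tissues the log2 fold changes were 4.59 and 2.79. The common forms Cox4i1 (0.12 ± 0.17) and Ndufa4 (0.15 ± 0.19) were not called between the white tissues. Without the 4 libraries Cox4i1 was called higher in iWAT (0.48), and Ndufa4 was at 0.38 and not called. Of 9 of these subunits 5 were then called higher in place of 2, where 5.7% of all genes tested were higher in both settings. The brown adipocyte markers were called higher as well, 5 of 6 with all libraries and 4 of 6 without the 4. Their part in these values was not tested.

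The muscle form Cox6a2 and the testis form Cox8c were too low to be tested. Cox6a2 reached 5.68 CPM in iWAT ko 1, the library with skeletal muscle transcripts, and at most 0.263 CPM in the wt libraries of iWAT, and Cox8c had 0 CPM in all iBAT and iWAT libraries and at most 0.239 CPM in eWAT.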
